A study of Mus musculus with 4 samples.

Results

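The baseline transcriptome of the organ of Corti was read from the control channel of 4 dual-colour arrays, that is from 4 of the 8 channels of the experiment. Each array also carried RNA of Sox2-Tbx2LOF embryos in its other channel, which was left unused. The 4 control pools had the genotype label Tbx2(fl/n.d.), in which n.d. is not spelled out, and lacked Cre recombinase according to the methods. Strain NMRI dams had received 4 mg of tamoxifen by mouth at E16.5 (embryonic day), together with progesterone, so that all pools came from drug-treated pregnancies, and some embryos may have carried the R26 mTmG reporter used in the crosses. Tissue was dissected at E18.5 from the basal part of the cochlear duct after removal of the spiral ligament and the spiral ganglion, and ears of several embryos were combined by sex. Pools 1 and 2 were female and pools 3 and 4 were male. Control RNA was labelled with the red dye Cy5 in pools 1 and 3 and with the green dye Cy3 in pools 2 and 4. All 4 arrays lay on 1 slide and shared a scan, so that no slide or scan separated the pools.

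The organ of Corti is the hearing epithelium of the mammalian cochlea. Its inner hair cells pass sound signals to the auditory nerve, its outer hair cells amplify the vibration, and both are held by supporting cells named inner phalangeal and border cells, pillar cells and Deiters' cells. Flanking epithelium, called the greater and lesser epithelial ridges, secretes the tectorial membrane that covers the hair bundles. At E18.5 the hair cells in the base have been specified, while hearing begins only after birth, when late genes such as prestin are switched on.

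The arrays measured 27487 named genes with 60-base probes. Levels are given as log2 brightness of a gene's brightest probe after background correction and scaling of the 4 channels to a common distribution. A gene was called detected when any of its probes stood well above the local background in at least 3 of the 4 pools. The lowest level well above background was 6.48, 6.37, 6.46 and 6.40 in pools 1 to 4, so that values near 6 mark signal that could not be told from background. Brightness depends on the probe as well as on RNA amount, hence values of different genes do not rank their transcripts, and each gene is set only against itself across pools. In bulk tissue, fewer cells of a type and less RNA per cell cannot be told apart.

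Because each value stands for a probe, the first 30 bases of the probes behind the detection calls discussed for hair cell identity and sex are shown in the sense of the transcript, with their positions on mouse genome build mm9. The exon and untranslated region of these positions are not analysed here.
Tbx2, chr11:85655391-85655450: tttttgctccagagggagaacgaagcgaga
Slc17a8, chr10:89037630-89037689: ctttcttggaaagtatggtcagatgatata
Slc26a5, chr5:21316891-21316950: ttgtgcaccgctcctgaattctggacttaa
Ocm, chr5:144780676-144780735: agcccccatctggcagacaaggcctttaaa
Xist, chrX:100656289-100656348: ttcattgtagcatacgcatactttcaaagt
Ddx3y, chrY:598215-598274: ccttgaagttccaattggatattgttgatt

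Of the 27487 genes, 19857 were detected, which is 72.2%. All 4 pools carried signal well above background for 19462 genes, exactly 3 pools for 395, 2 pools for 521, 1 pool for 335 and no pool for 6774. Detection went with dye, with 74.8% and 74.5% of genes above background in the Cy3 pools 2 and 4 and 71.4% and 71.8% in the Cy5 pools 1 and 3, and 490 of the 521 genes with signal in 2 pools had it in the Cy3 pools. Protein-coding genes were detected in 15963 of 20326 cases, 78.5%, and long non-coding RNA genes in 968 of 2041, 47.4%. The median level was 11.18 over detected genes and 6.15 over those not detected. Detected genes spread over the whole range of the arrays, with 4001 below 8, 3525 from 8 to 10, 4277 from 10 to 12, 4704 from 12 to 14 and 3350 at 14 or more on the log2 scale.

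Pools differed little. Correlation between pools across genes, which are not independent replicates, lay between 0.9969 and 0.9987. The SD of a gene over the 4 pools had a median of 0.09, and 18833 of the detected genes, 94.8%, stayed within 0.5 log2 units across all pools. Median absolute differences were 0.09 between the dyes and 0.08 between the sexes. Both female pools lay above both male pools in 17.7% of detected genes, and both male pools above both female pools in 18.0%, so that such small separations are common. Red pools lay above green pools in 14.6% and green above red in 26.3%. Depth is not defined for arrays, and the precision of each value is limited by their number (n = 4).

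**Figure D1:**
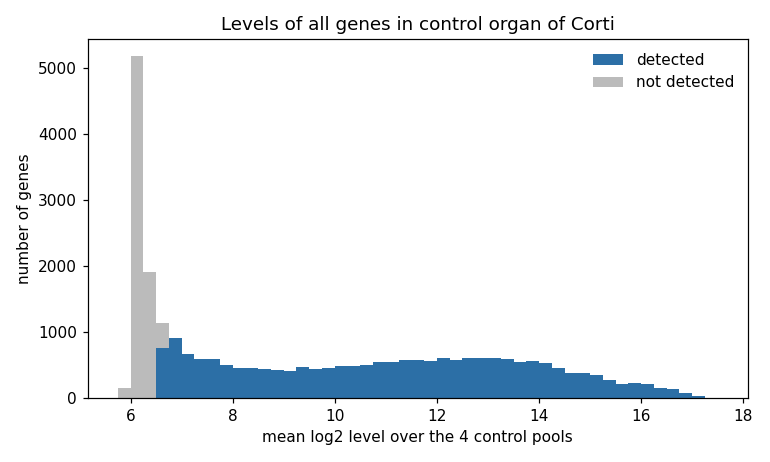
Number of genes by log2 level in the control organ of Corti, for genes detected and not detected in the 4 control pools. Detected genes have a median of 11.18 and the others a median of 6.15 on the log2 brightness scale.

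Markers of the labelled tissue were present. Taken over the hair cell and supporting cell lists together, 63 of 64 genes were detected, 98.4%, beside 72.2% of all genes on the array, and Slc26a5 was the exception. All 14 genes of hair cells in general were detected, and so were all 8 inner hair cell genes and 10 of 11 outer hair cell genes. All 6 inner supporting cell genes, 8 pillar cell genes, 8 Deiters' cell genes and 9 genes of prosensory and supporting cells passed too.

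Atoh1, the transcription factor that starts hair cell differentiation, read 12.10, 12.37, 12.03 and 11.99 in pools 1 to 4. Its partners in hair cell survival, Pou4f3 and Gfi1, read 9.30, 9.41, 9.36 and 9.20, and 12.53, 12.47, 12.56 and 12.29. These 3 regulators each stayed within 0.5 log2 units over the pools, with the male pools slightly below the female pools in Atoh1 and overlapping them in the other genes. Myo7a, the unconventional myosin of hair bundles, read 11.18, 11.42, 11.40 and 11.46, with pool 1 lowest. Pvalb, a calcium buffer, read 13.96, 14.05, 14.20 and 14.24, with both male pools above both female pools by a small margin. The remaining members of the list, among them Myo6, Barhl1, Lhx3, Calb1, Jag2, Srrm4, Anxa4, Rprm and Cib2, were above background in every pool, with means between 10.32 and 15.73 and SDs between 0.03 and 0.20 (n = 4).

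Inner hair cell genes were on before birth. Slc17a8, the vesicular glutamate transporter VGLUT3 that fills synaptic vesicles of these cells, read 8.36, 8.75, 8.60 and 8.77 in pools 1 to 4. Otof, the calcium sensor of their vesicle release, read 12.86, 13.21, 13.07 and 13.22. In both genes pool 1 was the lowest, and the sexes overlapped. Fgf8, a growth factor that inner hair cells send to pillar cells, read 10.52, 10.98, 10.59 and 10.53, so that pool 2 stood above 3 nearly equal pools. Tbx2, the transcription factor of the inner compartment whose floxed allele these embryos carried, read 13.39, 13.51, 13.47 and 13.39 and was the steadiest member of the list after Slc7a14, with SDs of 0.06 and 0.03 (n = 4). Calcium-binding proteins Cabp2 and Calb2 had means of 8.80 and 8.99 with SDs of 0.21 and 0.20 (n = 4).

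Outer hair cell genes split between regulators and late effectors. The transcription factors Insm1, Bcl11b and Ikzf2 were detected in all pools. Insm1, which keeps nascent outer hair cells from inner hair cell fate, read 11.50, 11.55, 11.33 and 11.24. Ikzf2, which drives their later maturation, read 10.29, 10.27, 10.27 and 10.10. Both had their lowest value in pool 4, and neither was called between the sexes. The paper's introduction places the start of IKZF2 expression in outer hair cells at postnatal day 4. Which cells gave the Ikzf2 signal in this bulk tissue at E18.5 was not tested. Chrna10, a subunit of the receptor for efferent acetylcholine, read 12.23, 12.75, 12.81 and 12.83 with pool 1 below the other 3. Slc26a5, the motor protein prestin, read 6.31, 6.17, 6.18 and 6.25 and was well above background in 0 of 4 pools. Ocm, the calcium buffer oncomodulin of mature outer hair cells, read 6.96, 7.27, 7.35 and 7.30, close to the background limit, and its other probe averaged 6.30 and was above background in 0 pools. With detection required of every probe of a gene, 6 of the 11 outer hair cell genes remained detected in place of 10. Levels of Slc26a5 below background do not show that the transcript was absent, since each probe sees 1 stretch of a transcript.

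Supporting cell genes gave strong and even signals. Among inner supporting cell genes, the glutamate transporter gene Slc1a3 read 14.81, 14.53, 14.73 and 14.66, the fatty acid binding protein gene Fabp7 read 16.32, 16.26, 16.45 and 16.25, and the growth factor gene Fgf20 read 8.49, 8.52, 8.66 and 8.67. Pillar cells are known for the receptors Fgfr3 and Ngfr, which read 14.18, 14.13, 14.09 and 13.99, and 13.93, 14.06, 13.83 and 14.01. All 5 genes stayed within 0.5 log2 units over the pools, with Fgf20 slightly higher in both male pools and Fgfr3 in both female pools. Prox1, a transcription factor of Deiters' and pillar cells, read 8.83, 9.01, 9.10 and 8.76, and Hes5, a Notch target, read 14.44, 14.64, 14.82 and 14.65. Lgr5, a Wnt pathway receptor of Deiters' cells, read 13.25, 13.58, 13.47 and 13.52, again with pool 1 lowest. Sox2, the regulator of the prosensory domain, read 12.84, 12.92, 12.76 and 12.81, the Notch ligand Jag1 read 14.44, 14.48, 14.41 and 14.42, and the cell cycle inhibitor Cdkn1b read 13.95, 13.79, 13.97 and 13.85. Each of these 3 genes had an SD of 0.09 or less.

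**Figure D2:**
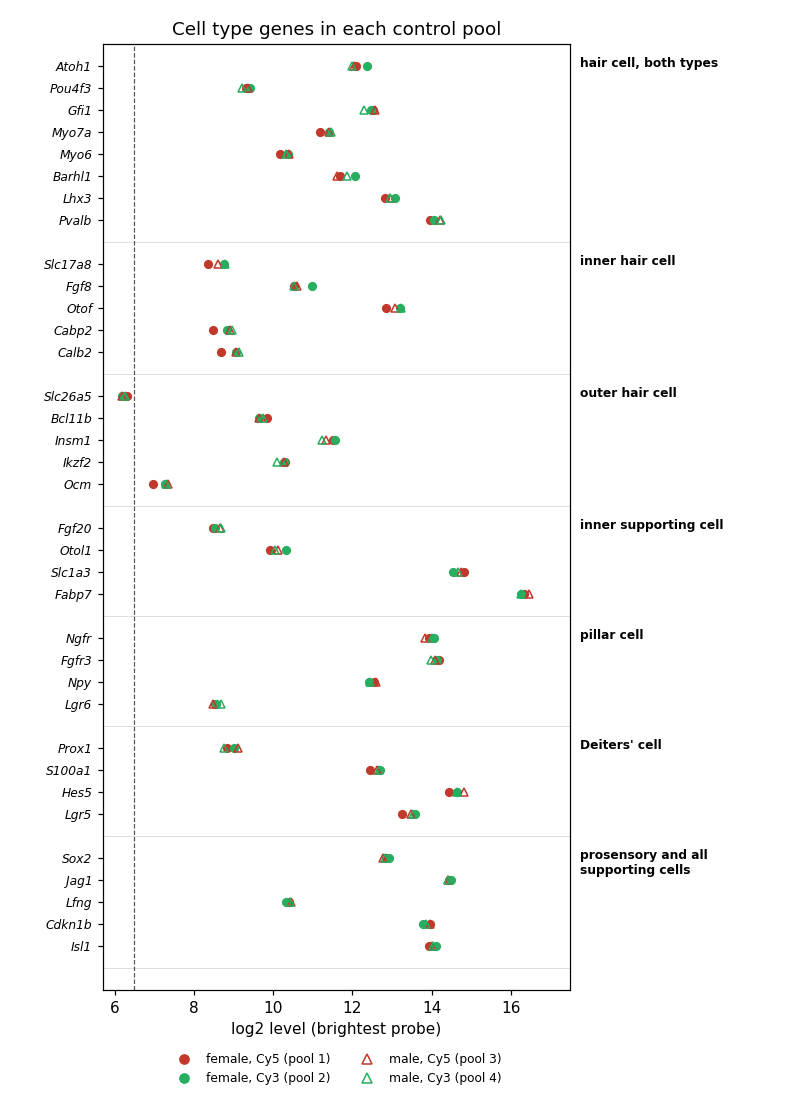
Log2 level of hair cell and supporting cell marker genes in each control pool, with filled circles for female and open triangles for male pools, red for Cy5 and green for Cy3, and a dashed line at 6.48, the highest of the pools' lowest levels well above background. Slc26a5 lies below the line in all pools and Ocm lies just above it.

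The epithelial ridges and the extracellular matrix were well represented. All 9 ridge genes were detected, and so were 9 of 10 genes for the tectorial membrane and otolith matrix, beside 72.2% of all genes. Tecta and Tectb encode the tectorins, the main non-collagen proteins of the tectorial membrane. They read 14.73, 14.89, 14.98 and 14.76, and 15.64, 15.52, 15.84 and 15.79. Otoa, which attaches the membrane to its epithelium, read 14.75, 14.86, 14.75 and 14.76. Ceacam16, a later component of the membrane, read 6.31, 6.37, 6.25 and 6.21 and was above background in 0 pools. Bmp4, a signal of the outer side of the duct, read 14.93, 15.04, 15.15 and 15.10. Tectb and Bmp4 were slightly higher in both male pools, while the sexes overlapped in Tecta and Otoa.

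Most hair bundle genes were detected at this stage. Of 29 genes for stereocilia and mechanotransduction, 28 passed, 96.6%, beside 72.2% of all genes. Tmc1 and Tmc2 encode pore subunits of the mechanotransduction channel. Tmc1 read 8.72, 8.90, 8.93 and 8.97, whereas Tmc2 read 6.44, 6.49, 6.43 and 6.45 and was above background in the Cy3 pools only, which left it not detected. Lhfpl5, another subunit of that complex, read 13.22, 13.14, 13.14 and 12.96. Cdh23, a cadherin of the tip link, read 8.12, 8.34, 8.38 and 8.38, Strc, the gene of a protein that links stereocilia, read 8.75, 9.20, 9.29 and 9.28, and Ptprq, which holds the shafts, read 8.39, 9.03, 9.13 and 9.24. In Cdh23, Strc and Ptprq pool 1 was below the other 3 pools, which lay close together, and both male pools were above both female pools.

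Synapse and ion transport genes followed. Of 10 ribbon synapse genes 9 were detected, with Rimbp2 at a mean of 6.36 in 0 pools. Ctbp2, which encodes the ribbon protein, read 14.17, 13.80, 14.11 and 13.92, and Cacna1d, the calcium channel of inner hair cells, had a mean of 11.01 ± 0.10 (SD, n = 4). Of 12 genes for potassium handling and connexins 11 were detected, 91.7%. In lists this small, such counts say little beside the share of all genes. Gjb2 and Gjb6, whose connexins form the gap junctions of supporting cells, read 15.64, 15.62, 15.76 and 15.71, and 13.97, 14.20, 14.06 and 14.18.

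Of 20 otic transcription factors 15 were detected, a share close to the 72.2% of all genes. Gata3, a regulator of the sensory domain, read 15.44, 15.39, 15.27 and 15.20, slightly higher in both female pools. Eya1, an otic co-activator, read 15.22, 14.46, 15.14 and 14.50, and the red pools were above the green pools in both sexes. Dlx5 was above background in the Cy3 pools only, with a mean of 6.53, while Pax8, Dlx6, Otx1 and Gbx2 were above background in 0 pools, with means of 6.22, 6.10, 6.33 and 6.10. These genes are known from the early otic placode and vesicle or other territories of the inner ear. Pax2 passed narrowly, with a mean of 6.66 and signal in 3 pools.

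All 19 Notch pathway genes were detected, beside 72.2% of all genes. They ran from the ligands Jag1, Jag2, Dll1, Dll3 and Dll4 to the target genes Hes1, Hes5, Hey1, Hey2 and Heyl. Notch1, the receptor, read 13.31, 12.65, 13.23 and 12.70, with both red pools above both green ones. Dll4, a ligand of vessels, had a mean of 7.66 ± 0.12 (SD, n = 4). Of 32 FGF pathway genes 29 were detected, 90.6%. Fgf4, Fgf16 and Fgf17 were above background in 0 pools, with means of 6.11, 6.10 and 6.38. Of 5 thyroid hormone genes 4 were detected, 80.0%, a share near that of all genes for so short a list. Thrb, the receptor needed for the maturation of hearing, read 13.21, 13.27, 13.31 and 13.31. Dio2, the enzyme that activates the hormone, read 8.09, 8.24, 8.51 and 8.56, and both male pools were above both female pools, whereas Dio3, the inactivating enzyme, averaged 6.50 and passed in the Cy3 pools only. All 12 genes of the proliferation list, which includes the cell cycle inhibitor Cdkn1b, were detected. Mki67 read 14.16, 14.27, 14.21 and 14.48.

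A list of 62 genes linked to hearing loss in people or mice had 60 detected members, 96.8%, beside 72.2% of all genes. The exceptions were Slc26a5 and Gipc3, a scaffold protein gene of hair cells, which averaged 6.23 and 6.32 and were above background in 0 pools. The list shares members with the hair bundle, synapse and matrix lists and is no separate evidence.

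**Figure D3:**
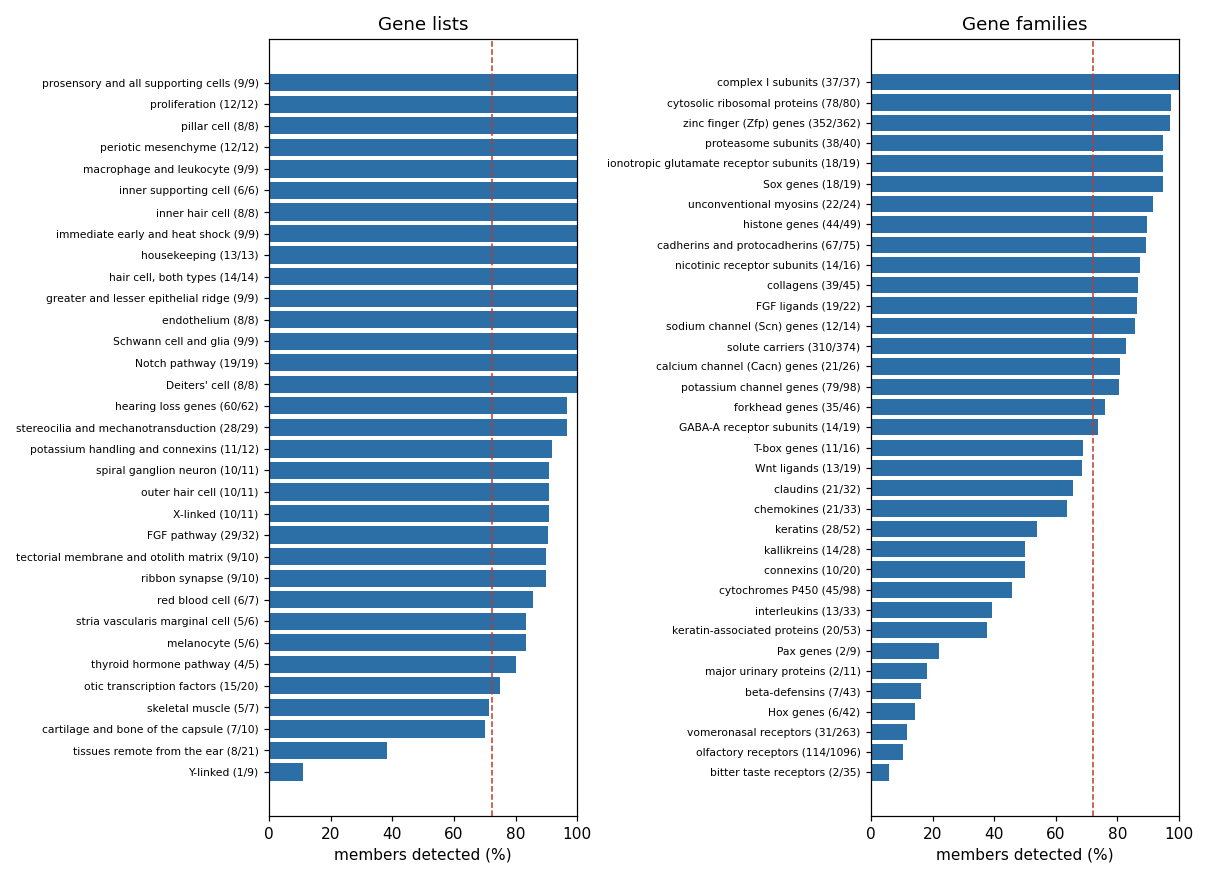
Percent of the genes of each list or gene family that were detected in control pools, with a dashed red line at 72.2%, the share of all genes. Hair cell, supporting cell and Notch lists lie above the line, and olfactory, vomeronasal and bitter taste receptors and Hox genes lie far below it.

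The dissected tissue also held RNA of neighbouring cells. Of 11 spiral ganglion neuron genes 10 were detected, although the ganglion had been removed: Nefl, a neurofilament gene, read 14.73, 14.61, 14.84 and 14.73, while Neurod1, a factor of young neurons, averaged 6.61 and passed in the Cy3 pools only. Schwann cell genes passed in 9 of 9 cases, beside 72.2% of all genes. All 12 genes of periotic mesenchyme were detected, with Col3a1 at 15.68, 15.63, 15.66 and 15.87 and Tbx18 at 13.32, 12.87, 13.10 and 12.85. No pool was free of these markers.

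Blood and vessel genes were present as well. Of 7 red blood cell genes 6 were detected, with Hba-a1, an alpha globin gene, at 16.98, 16.81, 16.94 and 16.97. All 9 macrophage and leukocyte genes and all 8 endothelial genes were detected, with Csf1r, the macrophage growth factor receptor, at 12.28, 12.57, 12.69 and 12.66 and Kdr, a vascular receptor, at 12.18, 12.09, 12.10 and 12.16. Of 6 genes of the marginal cells of the stria vascularis 5 were detected, with the endocytic receptor gene Lrp2 at 14.19, 14.21, 14.57 and 14.36 and the potassium channel subunit gene Kcne1 at a mean of 6.03 in 0 pools. Melanocyte genes passed in 5 of 6 cases, without Tyrp1. Dct, a pigment enzyme gene of these cells, read 11.81, 12.26, 12.40 and 11.16 and so had its lowest value in pool 4. Capsule cartilage and bone passed in 7 of 10 cases and skeletal muscle in 5 of 7, where the detected muscle genes had means from 6.82 to 7.34, just above background, and Myod1 and Ckm did not pass. Both shares, 70.0% and 71.4%, lie near the 72.2% of all genes and by themselves say nothing particular of these tissues. Levels within the cartilage and bone list were uneven. Col2a1 averaged 16.61 and Matn1 13.52, each above background in all 4 pools. Chad, Sp7, Runx2, Acan and Comp averaged 7.98, 7.84, 7.10, 7.04 and 6.84, and Bglap, Ibsp and Col10a1 did not pass. The part of these cells in the level of any other gene was not tested.

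**Figure D4:**
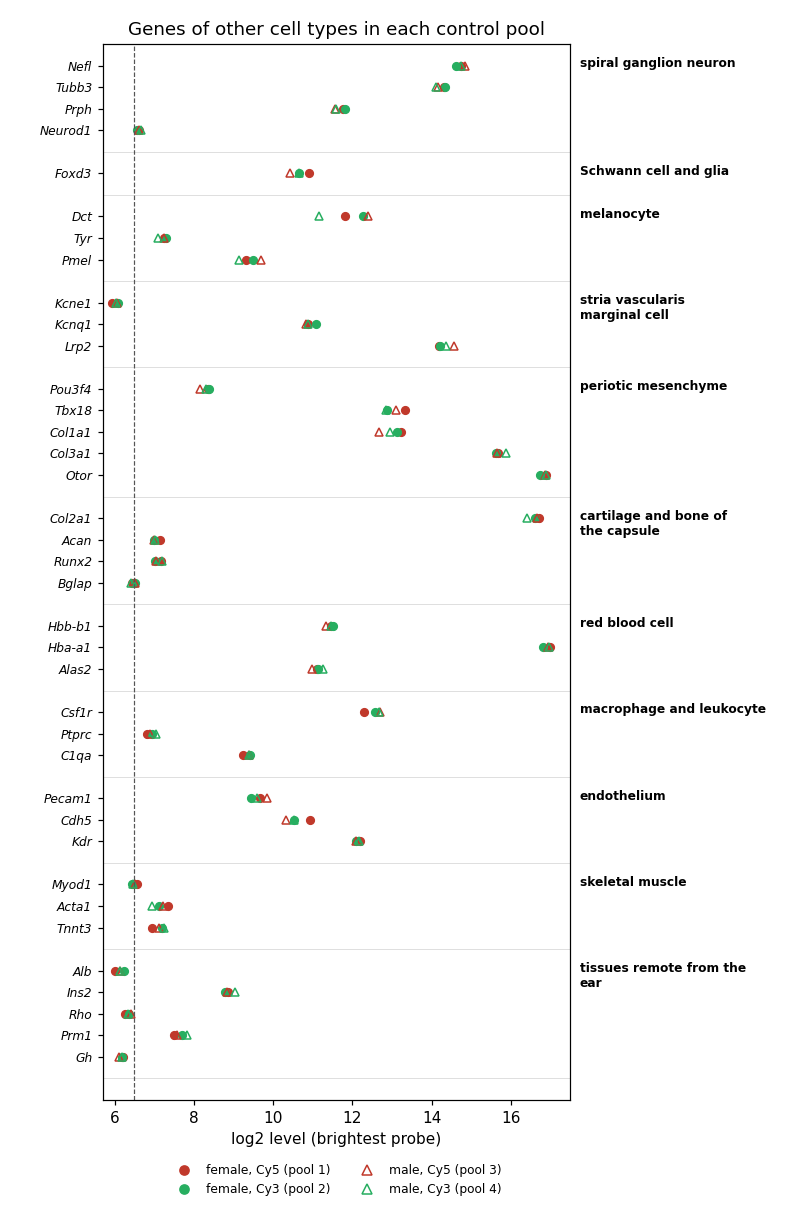
Log2 level in each control pool of marker genes of neighbouring cell types and of tissues remote from the ear, with filled circles for female and open triangles for male pools, red for Cy5 and green for Cy3, and a dashed line at 6.48. Hba-a1 and Col3a1 are bright in every pool, while Alb lies below the line.

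Some genes of tissues remote from the ear were also detected. Of 21 such genes 8 passed, 38.1%, beside 72.2% of all genes. Alb, the liver's serum albumin, averaged 6.12, was at 6.23 or lower in every pool and did not pass. Ins2, the insulin gene, read 8.86, 8.78, 8.82 and 9.03, and Cd3e of T cells read 8.89, 8.77, 8.68 and 8.88. The other 6 were Prm1, Cpa1, Myh6, Tg, Cyp3a11 and Tnp1, with means from 7.01 to 7.88. What these signals come from was not tested.

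Large gene families showed the same contrast. Olfactory receptors were detected in 114 of 1096 cases, 10.4%, vomeronasal receptors in 31 of 263, 11.8%, and bitter taste receptors in 2 of 35, 5.71%, with Tas2r109 at 7.34 and Tas2r113 at 6.79. The 95th percentile of olfactory receptor levels was 6.94. In contrast, 78 of 80 ribosomal protein genes, all 37 complex I subunits and 38 of 40 proteasome genes were detected. The exceptions were Rpl10l, Rpl3l, Psma8 and Psmb11, which are known as forms of testis, muscle and thymus. Hox genes pattern the hindbrain and the trunk. Of 42 genes with a Hox symbol, which include opposite-strand transcripts such as Hoxa11os, 6 were detected, 14.3%. Among these, Hoxa2 averaged 10.38, Hoxb2 8.77, Hoxa3 7.33, Hoxa9 7.17 and Hoxa11os 6.62. Of 16 T-box genes 11 were detected, 68.8% and so close to the share of all genes, and Eomes, T, Tbx19, Tbx20 and Tbx5 were not. Of 19 Sox genes only Sox15 failed. Of 24 unconventional myosin genes only Myo16 and Myo7b failed.

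Promoter sequence went with detection across genes. The share of promoters with 10 or more CG dinucleotides in the 250 bases before the start of the gene (RefSeq, GRCm38.p6) was 64.2% for detected genes and 11.4% for the others, beside 51.3% over all 17837 matched genes. Median CG counts were 14 and 2. By level class, the share went from 33.1% of genes detected below 8 through 52.6%, 69.8% and 78.5% to 79.6% of genes at 14 or above. Among protein-coding genes the shares were 65.4% and 10.2%, and 14.4% for undetected ones without olfactory and vomeronasal receptors. The letters TATAAA lay between 40 and 21 bases before the start in 1.75% of detected genes and 5.16% of the others, beside 2.59% of all. It did so in 1.77% of detected and 6.11% of undetected protein-coding genes, and in 8.16% of the latter without those receptors. Such counts describe letters and not binding of a factor. Single genes depart from this pattern. Slc26a5 was not detected and has 13 CG, while Ocm, Tectb, Pvalb and Hba-a1 were detected and have 1, 3, 4 and 4. A CG-rich and a CG-poor promoter, picked after their values were seen, are shown with each CG in capitals: Sox2 was detected and has 27, and Alb was not and has 2.
Sox2, GRCm38.p6 chr3:34649745-34649994, plus strand: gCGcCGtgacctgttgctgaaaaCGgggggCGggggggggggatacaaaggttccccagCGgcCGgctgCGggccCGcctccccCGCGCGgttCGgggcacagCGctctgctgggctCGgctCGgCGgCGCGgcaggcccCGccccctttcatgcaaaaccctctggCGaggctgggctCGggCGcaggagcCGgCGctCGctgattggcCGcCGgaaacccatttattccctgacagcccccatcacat
Alb, GRCm38.p6 chr5:90460620-90460869, plus strand: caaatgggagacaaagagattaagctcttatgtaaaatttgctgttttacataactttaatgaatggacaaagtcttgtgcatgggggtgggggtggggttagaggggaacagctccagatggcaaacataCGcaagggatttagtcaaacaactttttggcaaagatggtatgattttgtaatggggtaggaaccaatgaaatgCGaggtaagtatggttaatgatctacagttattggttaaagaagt

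Among the 20 brightest probes, ribosomal protein genes were frequent, with Rps10 at 17.24 and Rplp0 at 17.11, beside Tuba1b at 17.30, Ubb at 17.12, Tpt1 at 17.09 and Hsp90ab1 at 17.08, all housekeeping genes of translation, cytoskeleton or protein turnover. Fstl1, a secreted glycoprotein gene, followed at 17.07. Slc10a1, the bile acid transporter gene of the liver, stood among them at 17.09, and its probes disagreed. The bright probe read 17.22, 16.97, 17.15 and 17.00, and the other read 6.17, 6.19, 6.10 and 6.16 and was above background in 0 pools. The accessions listed for the bright probe name 4 RefSeq genes, and those of the other probe name 1. The first 30 bases of the bright probe hold, in capitals, the core of the B1 repeat, a short element found in many rodent transcripts, and those of the dim probe do not.
Slc10a1 bright probe, mm9 chr12:82056539-82056598: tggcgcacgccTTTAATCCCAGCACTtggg
Slc10a1 dim probe, mm9 chr12:82061470-82061529: cctacaaaggcattatgttatcactcgtca

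The motif TTTAATCCCAGCACT, bases 12 to 26 of the bright probe, was searched on both strands of all 39429 probes and lay in 8, or 0.0203%. Probes with it on the forward strand averaged 17.09 for Slc10a1, 16.58 for TC1653005, 16.38 for Csf3r and 9.06 for 6430531B16Rik. On the reverse strand they averaged 8.81 for Galns, 6.48 for Nxnl1, 6.14 for Brwd3 and 6.11 for Gm10804. These genes were named after their values were seen. What the bright values of such probes come from was not tested, and the level of Slc10a1 given by its brightest probe cannot be read as that of its transcript.

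Genes with several probes were detected in 89.0% of 7395 cases and genes with a single probe in 66.1% of 20092 cases, and probes of a name disagreed on detection in 1555 of the 7395. Of 3833 transcripts with a pair of detected probes, the more 3′ probe was brighter in 2697, 70.4%, with a median difference of 1.20 log2 units.

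Only a few genes differed strongly between pools. Among autosomal genes compared within a dye, Gm42035 read 9.14, 9.44, 9.23 and 11.11. Fos, an immediate early gene, read 10.43, 8.48, 8.84 and 9.27 and was highest in pool 1. Kifc1, a mitotic kinesin gene, read 9.93, 9.07, 8.89 and 10.32, a pattern shared by neither the sexes nor the dyes. Gfra4, a receptor gene of the GDNF family, read 13.11, 12.40, 11.91 and 11.44, and Csf2rb, a cytokine receptor subunit gene, read 8.53, 8.74, 7.26 and 7.29, with both female pools above both male pools.

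Pool 1 was lowest of the 4 pools for many hair cell genes. This held for 35 of 59 detected genes of the hair cell and stereocilia lists, 59.3%, beside 7274 of all 19857 detected genes, 36.6%. It held for 7 of 8 inner hair cell genes, 18 of 28 stereocilia genes, 6 of 8 Deiters' cell genes and 7 of 9 macrophage genes, but for 3 of 10 outer hair cell genes, 1 of 12 mesenchyme genes and 1 of 10 neuron genes. Immediate early and heat shock genes had their highest value in pool 1 in 7 of 9 cases, beside 5337 of all 19857 detected genes. Within a dye, the median female minus male difference of the 59 genes was -0.08 in red and 0.02 in green, beside -0.01 and 0.00 for all detected genes. What sets pool 1 apart was not tested.

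The sexes were compared among control pools, with 2 female and 2 male pools and 1 pool of each sex in each dye. Dye was a covariate and was not itself tested. In a limma fit with 1 residual degree of freedom, 40 of 19876 tested genes, 0.201%, passed both limits, an adjusted p under 0.05 and a change of 1.5-fold or more. Of these, 31 were higher in female pools, 0.156% of the tested genes, and 9 in male pools, 0.0453%. This direction turned with a male pool left out, to 2 against 5 without pool 3 and 2 against 3 without pool 4, and the count fell from 40 to 8 without the dye term. The Y chromosome held 3 of them, the X 8 and other chromosomes 29. The pools held several embryos each, so that no spread between embryos was measured. With 6.8 prior degrees of freedom, the p-values rest mostly on a variance shared over all tested genes.

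Genes of sex chromosome dosage led the difference and check the labels. Xist, the RNA that coats the inactive X, read 12.30, 11.80, 6.12 and 6.08 and was at least 49.2-fold higher in female pools, with a limma adjusted p of 1.69e-07. Its second probe read 10.40, 10.35, 6.18 and 6.16. Eif2s3y, a translation factor gene of the Y, read 6.36, 6.29, 14.10 and 13.97 and was at least 196-fold higher in male pools (limma adjusted p 2.30e-09). Ddx3y, an RNA helicase gene, and Uty, a histone demethylase gene, were at least 59.8-fold and 3.80-fold higher in male pools (limma adjusted p 6.05e-09 and 7.97e-06). These 4 genes were called in every alternative fit that was run, and they are marked as not detected by the rule of 3 pools because a single sex carried them. Bounds were set with the lowest signal well above background. Ube1y1, a gene placed on the Y, read 10.48, 10.14, 10.50 and 10.35, so that its probe was as bright in female pools.

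Of the listed X-linked genes that escape inactivation or act in it, none but Xist passed both limits. Jpx, an activator of Xist, had a female minus male difference of 0.56 log2 units and Eif2s3x one of 0.55, with limma adjusted p of 0.0438 and 0.0446, and both stayed under the fold of 1.5, which Jpx passed with centring on the 75th percentile (0.59). Pbdc1, Kdm5c, Kdm6a, Utp14a and Ddx3x had differences of 0.44, 0.38, 0.36, 0.35 and 0.32 with limma adjusted p of 0.0652, 0.0781, 0.092, 0.0955 and 0.113 and did not pass. Tsix, the antisense transcript of Xist, differed by 0.02 (limma adjusted p 0.918).

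Autosomal genes made up 29 of the 40 calls, but Csf2rb was the only one called with each pool left out in turn. Csf2rb was higher in female pools by 1.36 ± 0.076 log2 units (SE, limma adjusted p 5.44e-04, n = 2 against 2), and was called in every alternative too. AK053394, Gfra4 and 1700006J14Rik were higher in female pools by 1.11, 1.08 and 1.04 on the log2 scale. Tceanc2 was higher in male pools, with a female minus male difference of -0.89. With a pool left out, Tceanc2 was called in 0 of 4 fits, Gfra4 in 1 and AK053394 and 1700006J14Rik in 2. Xlr3a and Xlr3b, members of a family of near-identical X-linked copies that a probe may not tell apart, had differences of -0.81 and -0.76 and are uncertain. Of the 40 genes, 5 were called in each of the 12 other fits, and 28 were called in no fit with a pool left out. The count fell to 5 without pool 4 and to 25 without pool 2, with 7 and 11 without pools 3 and 1. No gene of the hair cell or supporting cell lists was called, beside 40 of all 19876 tested genes, 0.201%. With so low a share, this says nothing particular of these short lists.

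**Figure D5:**
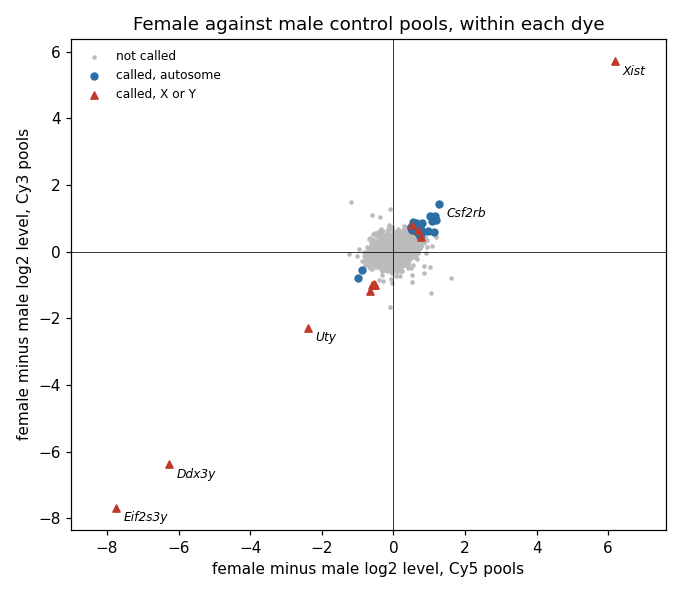
Female minus male log2 difference of tested genes between control pools, measured in the red channel and in the green channel, with called genes marked. Xist lies far on the female side in both dyes, and Eif2s3y, Ddx3y and Uty lie on the male side.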

How the data were processed

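The authors deposited spot intensity values, not normalized, that they read from Agilent arrays with Feature Extraction 10.7.3.1 per the submitters' processing notes, together with the scanner calls that mark a spot as well above background or as an outlier. A deposited series matrix holds the authors' signed fold change between genotypes and was not used. Each array has 174979 spots, 17263 of them control spots, and 39429 probes with 4 spots each. Probe positions are those of the deposited files on mm9.

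Control-channel intensity was corrected with normexp (offset 50) in limma 3.58.1 under R 4.3.3, put on a log2 scale without flagged or control spots, quantile normalized over the 4 control channels and averaged per probe. A gene's level is that of its brightest probe, and the 2437 probes without a gene name were left out. A probe was well above background in a pool when a share of over 0.5 of its unflagged spots was. Accessions matched RefSeq for 28757 probes and symbols for 3291. No spot was saturated, and between 70.6% and 74.1% of spots stood well above background in a pool. None of the negative-control spots did (0% in each pool).

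Female and male pools were compared with lmFit and eBayes (two-sided, dye as covariate, Benjamini-Hochberg over all 19876 genes well above background in both pools of a sex). The fit has 1 residual degree of freedom and 6.8 prior ones. Its p-values therefore rest mostly on a variance shared over all tested genes, and little on each gene's own spread between pools. Alternatives covered background correction, scaling, filters, the dye term, the detection rule and each pool left out.

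Members and gene lists were chosen with earlier results of these data known. Genes named in the text are those marked in the lists, the 20 brightest, up to 20 with the largest called sex difference, the 10 autosomal genes differing most between pools of a dye, and members of lists with 5 or fewer detected or undetected genes. Other named genes, such as Hox genes, family exceptions and probes with the B1 motif, were chosen after their values were seen. Some genes that the rule names are not reported here.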

Additional observations from a re-analysis of the deposited data

Results flagged for a closer look

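In 11 of 174 named genes, 1 pool stood apart from 3 pools that lay close together, by the gap to the nearest pool over the whole range (above Dixon's limit for 4 values). Chance flags about 1 in 20 such genes.

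Among hair cell genes, Fgf8, the signal from inner hair cells to pillar cells, was highest in pool 2 at 10.98, against 10.52 to 10.59 in the others. Ikzf2, the outer hair cell regulator, was lowest in pool 4 at 10.10, against 10.27 to 10.29. Cdh23, the tip link cadherin, and Strc, which links stereocilia, were lowest in pool 1 at 8.12 and 8.75, against 8.34 to 8.38 and 9.20 to 9.29. Bsn, a presynaptic scaffold gene, was highest in pool 1 at 10.26, against 9.77 to 9.83.

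Matrix and connective tissue genes followed, with Otoa highest in pool 2 at 14.86 against 14.75 to 14.76, Otor lowest in pool 2 at 16.74 against 16.87 to 16.90, and Acan, the cartilage proteoglycan gene, highest in pool 1 at 7.15 against at most 7.02 in the others. C1qa, a macrophage complement gene, was lowest in pool 1 at 9.23 against 9.39 to 9.41. Gm42035 and B930025B16Rik were named for their difference between pools of a dye, so that their gaps are a description: Gm42035 was highest in pool 4 at 11.11 against 9.14 to 9.44, and B930025B16Rik was lowest in pool 1 at 10.49 against 11.73 to 11.79.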

How the results depend on the processing

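The number of detected genes stayed between 18302, with every probe of a gene required, and 22367, with any significant signal accepted, beside 19857. Of the 64 organ of Corti markers 63 were detected under all alternatives except the requirement of every probe, which left 54. With significant signal, 15 of 21 genes of remote tissues passed in place of 8. After the data were seen, 2 alternatives were added: leaving out probes that name several genes gave 19609 detected genes, and requiring a level above the 95th percentile of olfactory receptors gave 18367. The number of genes called between the sexes depended on the processing. It was 40, and 17 with a normexp offset of 0, 11 with the scanner's processed signal, 12 without the filter on dim probes, 8 without the dye term, 80 without a minimum fold, and between 5 and 25 with a pool left out (11 without pool 1, 25 without pool 2, 7 without pool 3, 5 without pool 4). Loess with Aquantile, centring on the 75th percentile and the fit over all probes gave 39, 44 and 57. The share higher in female pools was 77.5%, but 63.6% with the processed signal, 66.7% without the filter, 62.5% without the dye term and 28.6% without pool 3 (2 against 5). Without pool 2 it was 15 against 10 and without pool 4 it was 2 against 3, so that it turned with either male pool left out. The cause of these changes was not tested, except that a left-out pool leaves 3 and drops the dye term. Eif2s3y, Ddx3y, Xist, Uty and Csf2rb were called under all of them. Signs turned for Mid1 without pool 3, where it lay between -0.03 and 0.65 with a pool left out, and for Tsix without pools 1 and 4, where it lay between -0.07 and 0.11 (-0.01 without pool 4), and neither gene was called. Levels of 182 named genes moved by over 1 SD in 35 cases with an offset of 0 and in 64 with the median over probes. No paired analysis was possible because the female pools are replicates 1 and 2 and the male pools 3 and 4, which share no number. Weak transcripts near the background limit cannot be told from absent ones.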
